A study of Mus musculus with 16 samples.

Results

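In all, 40 genes of the hypoxia response and of glycolysis were followed in CD11b+ dendritic cells from mouse lungs that carried tumours. The genes were given as a list of symbols. Each was read from the probe set annotated with that symbol alone, and where a gene had several such probe sets, from the one whose mean across the 16 arrays was highest. All 40 genes were found among 19938 named genes. They comprise 22 hypoxia targets and 18 genes of glucose uptake, glycolysis and pyruvate use.

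The cells were gated on CD11c, CD11b and MHC class II and came from C57BL/6 mice given Lewis lung carcinoma cells, a mouse lung tumour line, through the airways. By their titles, 8 arrays are tumoral (cells from lung tumour) and 8 are peritumoral (cells from lung tissue beside it). Both groups therefore come from tumour-bearing animals, and no tumour-free lung was used here. The sources used here give no age, number or pooling of the animals. It is also not stated that the arrays came from separate animals, so p-values measure only the spread between these samples, which may be technical. All values are log2 expression as deposited. Differences are tumoral minus peritumoral, group values are mean ± SD with n = 8, and adjusted p-values come from limma over all 19938 genes with a threshold of 0.05.

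Cells sense oxygen through hypoxia-inducible factors (HIF), whose alpha subunits are hydroxylated by prolyl hydroxylases and destroyed while oxygen is plentiful. When oxygen falls the alpha subunit persists, pairs with ARNT and binds DNA at hypoxia response elements, whose core is ACGTG or GCGTG. Its targets raise glucose uptake and glycolysis, divert pyruvate from mitochondria to lactate, remove mitochondria, modify collagen and store lipid. In macrophages and dendritic cells the same glycolytic genes are also raised by inflammatory activation, so they do not read oxygen alone.

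Promoters were looked up for the core of that element. The members were given by symbol and not by sequence, but as known hypoxia targets and glycolysis genes. A high share of matches was therefore likely beforehand and is no independent support for the list. RefSeq promoters of the GRCm38.p6 build, which run from 250 bases before to 50 bases after the transcription start, were held for 36 of the 40 genes. Bnip3l, Ndrg1, Bhlhe40 and Angptl4 had no entry. On either strand, ACGTG or GCGTG occurred in 45 of 55 promoters of the members (81.8%) and in 43.8% of all 32851 promoters. ACGTG alone occurred in 31 of the 55 (56.4%), against 19.6% of all promoters. The members' promoters held a median of 23 CG pairs, compared with 7 over all promoters, and both motifs contain CG. A match describes letters only and does not show a bound site. Stretches are shown for 4 members with wide ranges between arrays (Bnip3, Egln3, Pgk1, Ero1a), for Hk2, which had matches but did not share their pattern, and for Eno2, which had neither. All lie before the start and are given 5′ to 3′ on the strand of the gene. Capitals mark either core on that strand or its reverse complement, which is how a core on the opposite strand reads. A palindromic copy holds the core on both strands and was counted on each.
Bnip3 (chr7:138909517-138909643, minus strand): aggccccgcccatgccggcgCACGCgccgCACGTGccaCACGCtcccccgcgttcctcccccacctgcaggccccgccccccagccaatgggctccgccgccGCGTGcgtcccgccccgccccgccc
Egln3 (chr12:54204025-54204124, minus strand): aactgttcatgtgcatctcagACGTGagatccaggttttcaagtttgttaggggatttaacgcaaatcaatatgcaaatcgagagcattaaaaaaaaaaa
Pgk1 (chrX:106186894-106186993, plus strand): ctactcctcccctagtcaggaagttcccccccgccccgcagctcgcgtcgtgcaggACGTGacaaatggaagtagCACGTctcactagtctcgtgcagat
Ero1a (chr14:45318611-45318720, minus strand): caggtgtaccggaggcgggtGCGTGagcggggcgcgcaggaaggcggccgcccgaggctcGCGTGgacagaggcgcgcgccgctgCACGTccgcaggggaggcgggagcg
Hk2 (chr6:82774482-82774700, minus strand): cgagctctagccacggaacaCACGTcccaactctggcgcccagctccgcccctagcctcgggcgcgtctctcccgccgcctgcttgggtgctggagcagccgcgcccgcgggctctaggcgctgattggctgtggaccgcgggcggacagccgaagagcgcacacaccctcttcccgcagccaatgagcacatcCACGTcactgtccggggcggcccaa
Eno2 (chr6:124769674-124769773, minus strand): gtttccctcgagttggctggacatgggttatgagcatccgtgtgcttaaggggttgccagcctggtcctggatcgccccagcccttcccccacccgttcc
Bnip3 carries 5 matches in its stretch, Ero1a 3, Pgk1 2, Egln3 1, Hk2 2 and Eno2 none. Tpi1, which is not printed, also had no match but shared the pattern of Bnip3, Egln3, Pgk1 and Ero1a.

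The arrays differed among themselves in a way that the titles do not follow. The deposited table lists peritumoral 1 to 8 and then tumoral 1 to 8. The arrays in columns 3, 6, 9, 12 and 15, here called set 3, are peritumoral 3 and 6 and tumoral 1, 4 and 7. Those in columns 1, 4, 7, 10, 13 and 16, called set 1, are peritumoral 1, 4 and 7 and tumoral 2, 5 and 8. Those in columns 2, 5, 8, 11 and 14, called set 2, are peritumoral 2, 5 and 8 and tumoral 3 and 6. In 22 of the 40 members every array of set 3 lay above every array of set 1, as in 15.5% of all genes, and in 0 members did the order run the other way, as in 6.82% of all genes. In 11 members the 5 arrays of set 3 were the 5 highest of all (8.37% of all genes), in 0 members were they the 5 lowest (3.6% of all genes), and in 10 members the 6 arrays of set 1 were the 6 lowest (1.96% of all genes). Fam162a, Hk3, Aldoa, Pgk1, Pgam1 and Pkm showed both, as did 0.933% of all genes. Set 2 held the 5 highest values in 0.015% of all genes and the 5 lowest in 0.015%. These sets were defined by column after the values were seen. No label says what they stand for, so they were given no test and no mean. In the fits they entered only as a block, in an alternative added later. They also split the members for the promoter counts that follow. Of the 22 members with the order, 21 had promoter entries, of which 26 of 31 held ACGTG or GCGTG (83.9%) and 20 of 31 ACGTG (64.5%). For the other members these were 19 of 24 (79.2%) and 11 of 24 (45.8%). Promoters of members with the order held a median of 24 CG pairs and those of the others 18, and both motifs contain CG. Some genes entered with several promoters, and the groups were made after the values were seen.

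**Figure D1:**
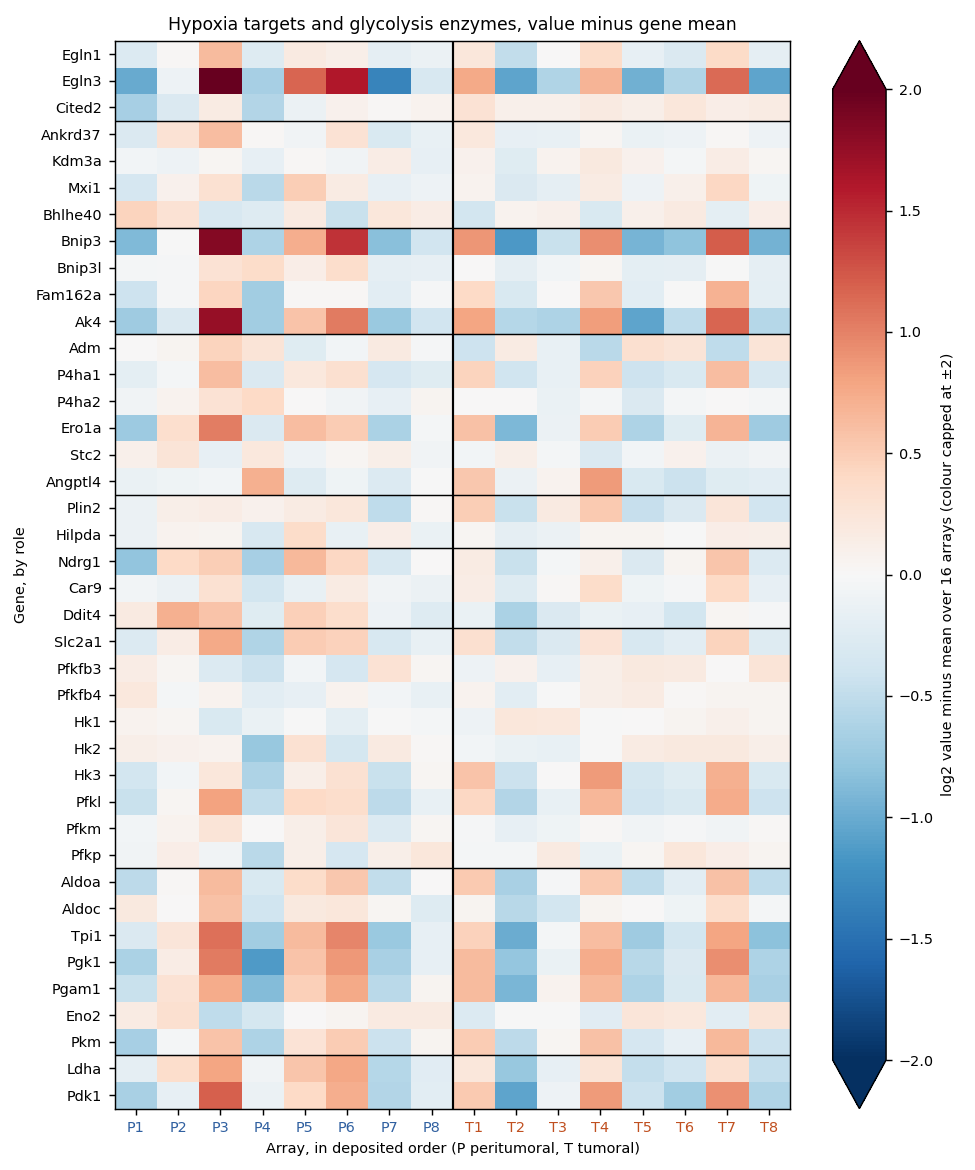
Colours show the log2 value of each of the 40 genes in each array minus that gene's mean over the 16 arrays, with genes grouped by role and arrays in deposited order (P peritumoral, T tumoral). Peritumoral 3 and 6 and tumoral 1, 4 and 7 are high for most genes of the mitochondrial and lower glycolysis groups, and both sides of the line between the labels show the same alternation.

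The genes of the sorting markers were strong in all arrays. Itgax, which encodes CD11c, measured 11.07 to 11.79 in peritumoral and 11.51 to 11.72 in tumoral arrays. Itgam, which encodes CD11b, measured 10.18 to 11.80 in peritumoral arrays, lowest in peritumoral 4, and 11.0001 to 11.62 in tumoral arrays. H2-Ab1, which encodes an MHC class II chain, measured 13.06 to 13.38 and 13.10 to 13.38. Macrophage genes were strong as well. C1qb measured 12.16 to 13.05 in peritumoral and 12.57 to 12.99 in tumoral arrays, and Cd68 11.77 to 12.54 and 12.19 to 12.67. The sorting genes alone therefore do not tell dendritic cells from macrophages, and the share of each was not tested. Array medians lay between 6.75 and 6.95. Peritumoral 4 stood apart for nearly all other cell types, and peritumoral 7 for endothelium and, less, fibroblasts. The mean of 10 endothelial markers, each centred on its own mean, was 3.52 and 1.28 there and -0.51 to -0.40 in tumoral arrays, and all 10 were lower in tumoral arrays on average. Neutrophil markers were highest in peritumoral 4 and 5, at 1.44 and 1.32. In peritumoral 4 the same mean was 2.15 for B cells, 2.05 for fibroblasts, 1.87 for NK cells, 1.75 for lung epithelium, 1.44 for alveolar macrophages and 1.25 for T cells. The tumoral mean was lower for all 10 fibroblast, 10 epithelial, 10 neutrophil, 5 B cell and 6 NK cell markers, for 5 of 6 T cell and 7 of 8 alveolar macrophage markers, with 0 past the threshold. Their part in the label differences of the members was not tested.

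Between the labels, none of the 40 genes passed the threshold and none had labels that did not overlap. limma called 0 of 40 members and 0.0% of all genes at an adjusted p under 0.05. At an unadjusted p under 0.05 there were 4 members, Ddit4, Cited2, Bnip3l and Hk1, where 11.5% of all genes reached this (5.6% higher and 5.9% lower in tumoral arrays). Cited2 and Hk1 were the higher ones. The labels did not overlap in 0.0853% of all genes, 0.00502% with tumoral arrays higher and 0.0802% with tumoral arrays lower. The exact rank-sum test also called 0 genes and 0 members, with 3 members and 11.7% of all genes at an unadjusted p under 0.05. The mean was higher in tumoral arrays for 15 members and lower for 25, and it was higher for 41.7% of all genes. The median difference was -0.06 for hypoxia targets and -0.01 for glycolysis enzymes, beside -0.02 for all genes. Centring the arrays on their medians turned the sign of 6 members and left 19 lower and 21 higher, so no direction is given for the list. The intervals were narrow for some genes and wide for others: 38 of the 40 excluded a difference of 1 on the log2 scale (2-fold) in either direction. Those of Bnip3 and Egln3 reached below -1.

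**Figure D2:**
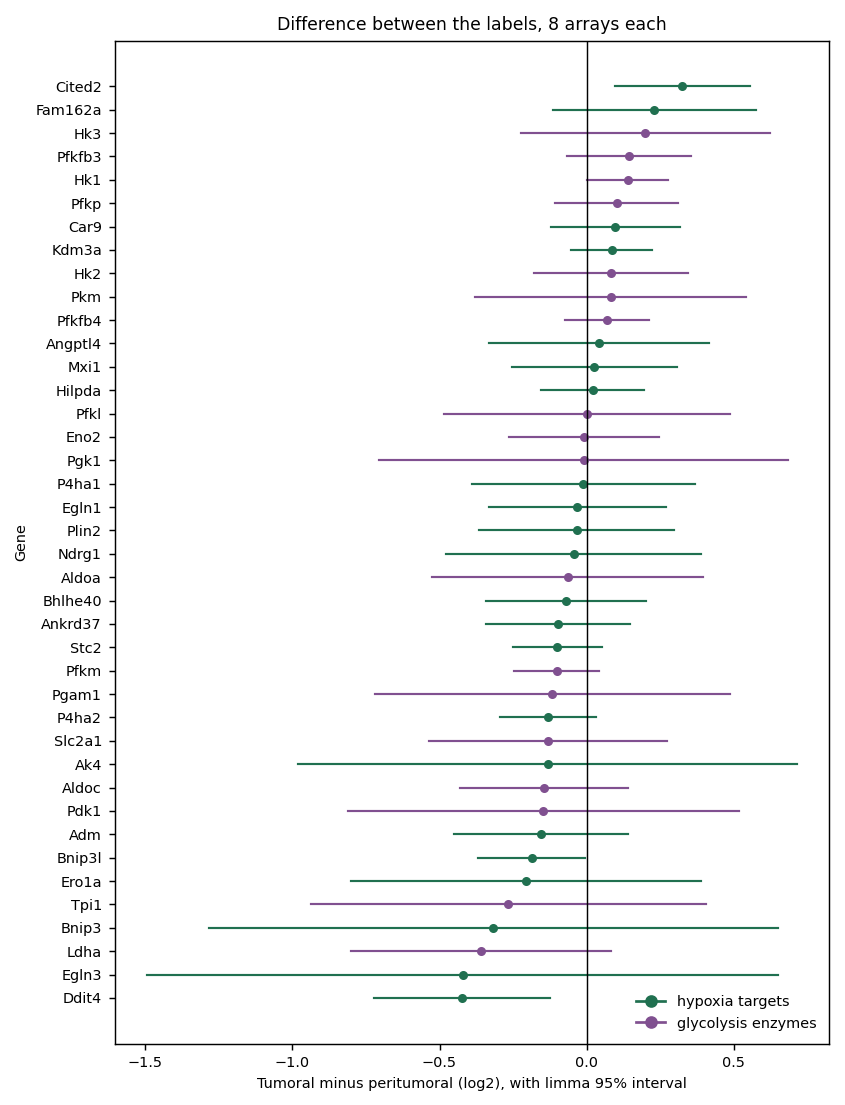
Points show the tumoral minus peritumoral difference of each gene on the log2 scale and lines its 95% interval from limma, with 8 arrays per label. Differences run from -0.42 (Ddit4) to 0.33 (Cited2), and the widest intervals belong to Egln3 and Bnip3.

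Leaving out arrays brought at most 1 member past the threshold. Without peritumoral 7 and 8, an alternative added after the values were seen, 1 member passed, Ddit4, at -0.55 (adjusted p = 0.0433), and 2.62% of all genes did. Ddit4 measured 8.59 and 8.44 in those arrays, within its tumoral range of 8.06 to 8.73. Leaving them out enlarges its difference, so no conclusion is drawn from that p-value. At an unadjusted p under 0.05 there were 6 members in that fit and 16.7% of all genes. Besides those of Bnip3 and Egln3, the intervals of Ak4, Tpi1 and Pdk1 also reached below -1 there (to -1.28, -1.18 and -1.04). Without peritumoral 7 alone 0 members passed and 0.642% of all genes. With the column set as a block, also added later, 0 members and 0.0% of all genes passed. That fit narrowed the intervals, and 13 members had an unadjusted p under 0.05 where 19.1% of all genes did. Because the sets were defined after the values were seen, the intervals and p-values of that fit are descriptive only. The smallest adjusted p in it belonged to Ldha, with a difference of -0.43 (95% interval -0.64 to -0.21, adjusted p = 0.0795), followed by Bnip3 at -0.51 and Tpi1 at -0.37 (adjusted p = 0.0843 and 0.0973).

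Among the oxygen-sensing genes, Egln3 had the widest range of all members and Cited2 one of the smallest unadjusted p-values between the labels. Egln3, a prolyl hydroxylase that marks HIF for destruction and is itself a HIF target, measured 6.33, 7.22, 9.64, 6.67, 8.49, 8.94, 6.02 and 7.02 in peritumoral 1 to 8. In tumoral 1 to 8 it measured 8.09, 6.28, 6.73, 8.01, 6.36, 6.73, 8.47 and 6.28. Its range of 3.62 compares with a median range of 0.65 over all genes. The 6 arrays of set 1 were its 6 lowest, and peritumoral 5, of set 2, stood at 8.49, above the 3 tumoral arrays of set 3. Between the labels it differed by -0.42 (95% interval -1.49 to 0.65, adjusted p = 0.780). Egln1, the main prolyl hydroxylase under normal oxygen, followed with a smaller range, at 8.67 to 9.17 in set 3 and 8.06 to 8.38 in set 1, and differed by -0.03 between the labels. Cited2 competes with HIF for its coactivators and so restrains the response. It measured 11.02 ± 0.07 in tumoral and 10.69 ± 0.32 in peritumoral arrays, a difference of 0.33 (95% interval 0.10 to 0.56, adjusted p = 0.298). Its lowest values were in peritumoral 1 (10.19) and 4 (10.27), and all tumoral arrays lay between 10.95 and 11.14. Peritumoral 3 at 11.02 lay inside that tumoral range.

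The mitochondrial genes ranged from Bnip3, which spanned 2.99 over the arrays, to Bnip3l, which spanned 0.57. Bnip3, a receptor that brings mitochondria to autophagy, measured 7.58, 8.46, 10.30, 7.85, 9.19, 9.92, 7.63 and 8.09 in peritumoral 1 to 8. In tumoral 1 to 8 it measured 9.35, 7.31, 8.03, 9.39, 7.53, 7.67, 9.67 and 7.52. The 5 arrays of set 3 were its 5 highest, from 9.35 upward, while set 1 ended at 7.85. The labels overlapped and differed by -0.32 (95% interval -1.29 to 0.65, adjusted p = 0.826). The second probe set of Bnip3 gave the same order at a lower level, 8.35 to 9.42 in set 3 and 7.02 to 7.53 in set 1. Ak4, a mitochondrial adenylate kinase, measured 7.84 to 8.78 in set 3 and 5.99 to 6.48 in set 1. Its other probe set did not separate the sets and ranged only from 6.497 to 7.10, so the level of Ak4 is uncertain. Fam162a, a mitochondrial protein induced by hypoxia, measured 8.07 to 8.75, 8.02 to 8.06 and 7.36 to 7.85 in sets 3, 2 and 1, without overlap between them. Sets 3 and 2 nearly touched, with peritumoral 6 at 8.067 and peritumoral 5 at 8.064. The order of the sets was read from the deposited values only and not after other normalizations. Bnip3l, the paralogue of Bnip3 that also clears mitochondria, measured 11.56 to 12.10 with a median of 11.79 in peritumoral arrays and 11.53 to 11.77 with a median of 11.62 in tumoral arrays. It differed by -0.19 (95% interval -0.37 to -0.01, adjusted p = 0.416). The peritumoral values were high in peritumoral 3, 4 and 6 (12.01, 12.10 and 12.08) and not in 7 and 8, both at 11.56, inside the tumoral range.

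**Figure D3:**
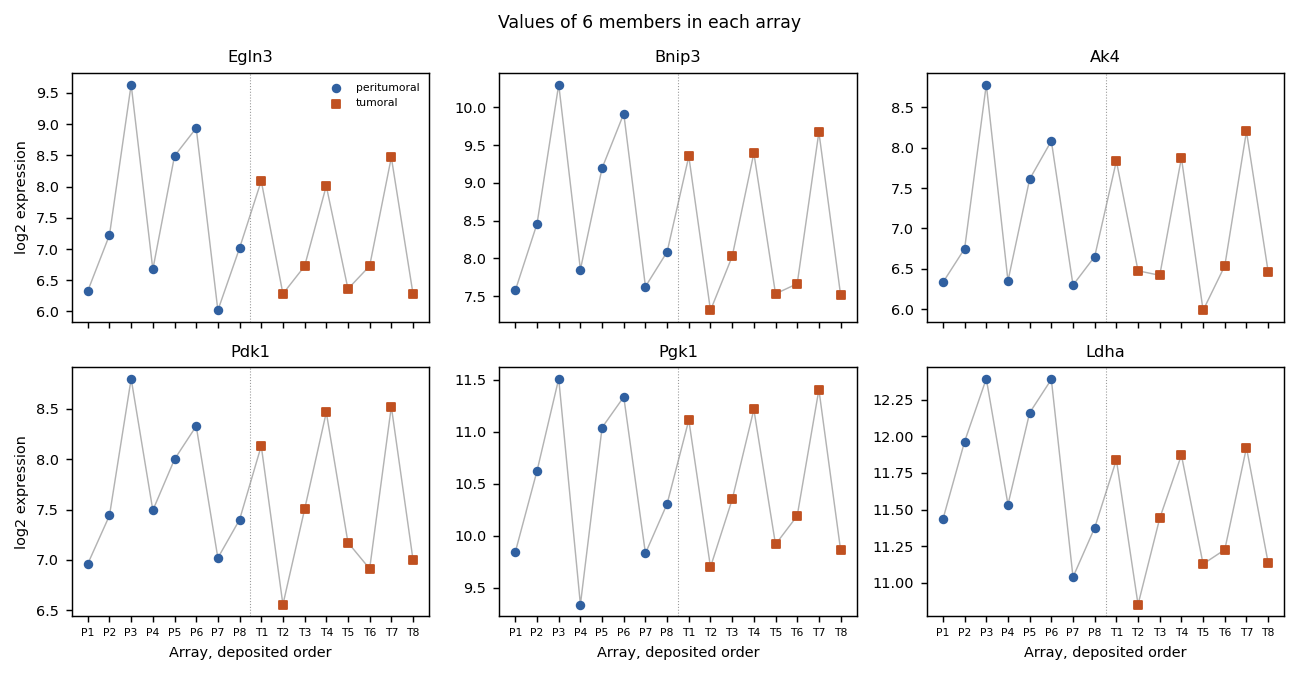
Each panel plots the log2 value of 1 gene in the 16 arrays in deposited order, with circles for peritumoral and squares for tumoral arrays. Egln3, Bnip3, Ak4, Pdk1 and Pgk1 peak in peritumoral 3 and 6 and tumoral 1, 4 and 7, and the tumoral peaks of Ldha (11.84 to 11.92) lie below the peritumoral ones (both 12.39).

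Secreted and matrix genes did not share a pattern. P4ha1, the catalytic subunit of the enzyme that hydroxylates proline in collagen, measured 10.10 to 10.40 in set 3 and 9.36 to 9.58 in set 1, with a label difference of -0.01. Its paralogue P4ha2 ranged only from 6.04 to 6.73, highest in peritumoral 4. Ero1a, an oxidase that forms disulfide bonds in the endoplasmic reticulum, measured 10.61 to 11.13 in set 3, 9.86 to 10.73 in set 2 and 9.20 to 9.82 in set 1. It differed by -0.21 (95% interval -0.80 to 0.39, adjusted p = 0.814) between the labels. Adm, the gene of the vasodilator adrenomedullin, measured 6.64 to 7.34 with a median of 6.92 in peritumoral arrays and 6.35 to 7.21 with a median of 6.89 in tumoral arrays. Its 3 lowest values were in tumoral 1, 4 and 7, the tumoral arrays of set 3, while peritumoral 3 held its highest. Angptl4, an inhibitor of lipoprotein lipase, stood apart in peritumoral 4 (7.65) and in tumoral 1 and 4 (7.47 and 7.79) and reached at most 7.002, in tumoral 3, elsewhere. Stc2, a secreted glycoprotein hormone gene, stayed between 5.88 and 6.42. None of these 6 genes had an unadjusted p under 0.05 between the labels. P4ha2, Adm, Angptl4 and Stc2 were dim, with means below that of the median gene.

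The lipid droplet genes, the growth and pH genes and the transcriptional regulators contained both kinds. Plin2, which coats lipid droplets, measured 11.86 to 12.24 in set 3 and 11.21 to 11.80 in set 1. Hilpda, an inhibitor of droplet lipolysis, did not follow and ranged from 9.24 to 9.93. Ndrg1, a stress-response gene, had its 6 lowest values in set 1 (9.65 to 10.17) and its highest in peritumoral 5 (11.09). Car9, the cell-surface carbonic anhydrase that is a classic marker of hypoxic tumour cells, moved over a range of only 0.75, but set 3 held its 5 highest values, from 7.09. It was dim, at 6.58 to 7.33 beside array medians of 6.75 to 6.95. Ddit4, an inhibitor of mTOR signalling, measured 8.86, 9.41, 9.27, 8.45, 9.16, 9.05, 8.59 and 8.44 in peritumoral 1 to 8 and 8.56, 8.06, 8.41, 8.55, 8.53, 8.33, 8.73 and 8.66 in tumoral 1 to 8. It differed by -0.42 (95% interval -0.72 to -0.13, adjusted p = 0.298). The 5 peritumoral arrays numbered 1, 2, 3, 5 and 6 lay above every tumoral array, and numbers 4, 7 and 8 lay within the tumoral range. Mxi1, a MYC antagonist, and Ankrd37, a HIF target of unclear function, were above set 1 in all arrays of set 3. Kdm3a, a histone demethylase induced by HIF, ranged only over 0.44. Bhlhe40, a transcriptional repressor, was low in set 3, which measured 10.82 to 11.07, with peritumoral 4 at 11.02 among them, and the remaining 10 arrays lay at 11.33 or above.

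Glucose entry and its first steps separated by isoenzyme. Slc2a1, the glucose transporter GLUT1, measured 10.81 to 12.17 with a median of 11.42 in peritumoral arrays and 10.92 to 11.86 with a median of 11.17 in tumoral arrays. Set 3 ran from 11.69 to 12.17 and set 1 from 10.81 to 11.15, and the labels differed by -0.13 (95% interval -0.54 to 0.27, adjusted p = 0.828). Of the hexokinases, which trap glucose as glucose 6-phosphate, Hk3, the myeloid form, followed the sets without overlap, at 8.17 to 8.78, 7.70 to 8.05 and 7.32 to 7.64 in sets 3, 2 and 1. Hk2, the form that HIF is known to induce, measured 8.79 to 9.33 in set 3 and 8.38 to 9.33 in set 1. Its lowest value, 8.38, was in peritumoral 4. For Hk1, the widely expressed form, the kept probe set measured 12.39 ± 0.11 in tumoral and 12.25 ± 0.13 in peritumoral arrays, a difference of 0.14 (95% interval 0.0027 to 0.28, adjusted p = 0.426). That probe set is annotated through 1 accession alone. The other, with 8 accessions, lay at 8.34 to 9.15 and differed by -0.16, so the direction of Hk1 depends on the probe set. Among the phosphofructokinases, which commit sugar to glycolysis, the liver type Pfkl followed the sets (8.88 to 9.33 in set 3 and 7.94 to 8.14 in set 1) with a label difference of 0.0019. The muscle type Pfkm and the platelet type Pfkp did not, with ranges of 0.53 and 0.77. Pfkfb3 and Pfkfb4, which make the activator fructose 2,6-bisphosphate, ranged from 9.28 to 9.999 and from 8.28 to 8.71, and 0 arrays of set 3 were among the 5 highest for Pfkfb3.

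**Figure D4:**
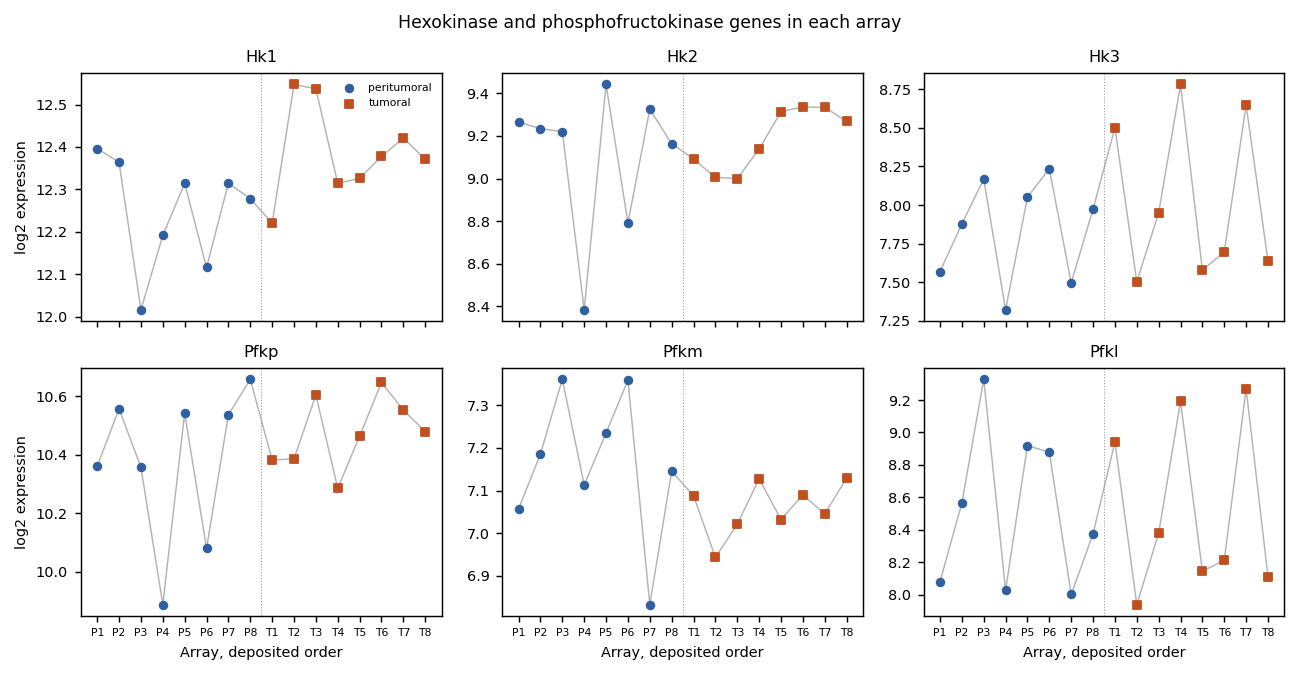
Each panel plots the log2 value of 1 hexokinase or phosphofructokinase gene in the 16 arrays in deposited order, with circles for peritumoral and squares for tumoral arrays, each panel with its own scale. Hk3 has its 5 highest values in peritumoral 3 and 6 and tumoral 1, 4 and 7, Pfkl peaks in peritumoral 3 and tumoral 1, 4 and 7, while Pfkm is highest in peritumoral 3 and 6 and not raised in those tumoral arrays, and Hk1, Hk2 and Pfkp are low in peritumoral 6.

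Most genes of lower glycolysis shared the order of the sets. In 5 of its 7 genes, Aldoa, Tpi1, Pgk1, Pgam1 and Pkm, all arrays of set 3 lay above all of set 1. Pgk1, the phosphoglycerate kinase that makes the first ATP of the pathway, measured 9.84, 10.62, 11.51, 9.34, 11.04, 11.33, 9.83 and 10.31 in peritumoral 1 to 8. In tumoral 1 to 8 it measured 11.11, 9.70, 10.35, 11.21, 9.91, 10.19, 11.40 and 9.86. Each set occupied its own interval, 11.11 to 11.51, 10.19 to 11.04 and 9.34 to 9.91 for sets 3, 2 and 1. The label difference was -0.01 (95% interval -0.70 to 0.68, adjusted p = 0.994). All 3 probe sets of Pgk1 gave this order, 2 of them with identical values in the 16 arrays. So did the 3 of Pgam1, again 2 with identical values, and such probe sets are not independent measurements. Tpi1, which interconverts the triose phosphates, measured 10.60 to 11.24 in set 3 and 9.14 to 9.84 in set 1 and differed by -0.27 (95% interval -0.94 to 0.41, adjusted p = 0.778). Pgam1, the phosphoglycerate mutase, ran from 11.36 to 11.48 in set 3 and from 9.82 to 10.29 in set 1. Aldoa, the main aldolase, and Pkm, the pyruvate kinase gene, measured 12.21 to 12.32 and 10.996 to 11.14 in set 3 and 11.05 to 11.39 and 9.83 to 10.16 in set 1. The minor isoenzymes differed from these. Aldoc, the brain-type aldolase, had set 3 at 8.52 to 9.06 and set 1 at 7.92 to 8.66, which overlap. Eno2, the neuronal enolase, whose printed promoter stretch held no match, had 4 arrays of set 3 among its 5 lowest values, with a label difference of -0.01. The promoter of Tpi1, which followed the sets, held no match either.

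At the branch of pyruvate, Pdk1 followed the sets and so did Ldha, with its tumoral arrays below the peritumoral ones of set 3. Pdk1, the kinase that keeps pyruvate out of the citrate cycle, measured 8.13 to 8.80 in set 3 and 6.56 to 7.49 in set 1, and its labels differed by -0.15 (95% interval -0.81 to 0.52, adjusted p = 0.897). Ldha, which makes lactate, measured 11.43, 11.96, 12.39, 11.53, 12.16, 12.39, 11.04 and 11.38 in peritumoral 1 to 8. In tumoral 1 to 8 it measured 11.84, 10.85, 11.44, 11.87, 11.13, 11.23, 11.92 and 11.14. Within set 3 both peritumoral arrays, at 12.39, lay above the 3 tumoral ones, whose highest was 11.92. In set 1 peritumoral 1 and 4 lay above the 3 tumoral arrays and peritumoral 7 (11.04) lay within them. Over all arrays Ldha measured 11.43 ± 0.41 in tumoral and 11.79 ± 0.51 in peritumoral arrays, a difference of -0.36 (95% interval -0.80 to 0.08, adjusted p = 0.522).

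The spread of the members over the 16 arrays was large against that of other genes. The SD of 19 of the 40 was above the 90th percentile of all genes and that of 10 above the 95th, led by Egln3, Bnip3, Ak4, Pgk1, Tpi1 and Pdk1. The SD of 7 members lay below the median gene: Kdm3a, Pfkfb4, Pfkm, Hk1, Stc2, P4ha2 and Hilpda. In 27 of the 40 members the SD was larger among peritumoral than among tumoral arrays. The same held for Itgax, Itgam and H2-Ab1. The share over all genes was not counted, so this is not read as a trait of the members. Both labels held arrays of all 3 sets.

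Further genes of the pathway shared the order of arrays in part. Of 15 HIF subunits and regulators 8 had a higher and 7 a lower mean in tumoral arrays. Of these 0 passed the threshold. Set 3 lay above set 1 in 2 of the 15, Hif1a and Elob (15.5% of all genes), and below it in Crebbp. Hif1a itself, chosen after its values were seen, had its 6 lowest values in set 1 (10.78 to 11.12) and measured 11.54 to 11.85 in set 3. Between the labels it differed by -0.01. The smallest unadjusted p-values in that list belonged to Rbx1, part of the ubiquitin ligase that destroys HIF, at 0.79 (adjusted p = 0.232), Eloc at 0.23 and Epas1, which encodes HIF-2 alpha, at -1.43. Rbx1 measured 9.49 and 9.60 in peritumoral 7 and 8, like the tumoral arrays (9.21 to 10.03), and 8.997 or less in peritumoral 1 to 6. Epas1 was highest in peritumoral 4 (12.47) and 7 (10.68), the arrays with the highest endothelial signal, and the part of those cells in the difference was not tested. Of 39 other hypoxia targets 9 had a higher and 30 a lower mean in tumoral arrays, and 0 passed the threshold. In 13 of them all arrays of set 3 lay above set 1 (15.5% of all genes), and in 3, Slc2a3, Rora and Stc1, below it (6.82% of all genes). Nfil3, Wsb1 and Plod2 had the smallest p, at 0.34, 0.37 and -0.63. Arg1, the arginase of myeloid cells, chosen here after its values were seen, measured 9.62 to 10.98 in set 3, 8.23 to 10.57 in set 2 and 5.95 to 6.75 in set 1. Mif, a cytokine gene chosen in the same way, measured 12.05 to 12.33, 11.15 to 11.91 and 10.69 to 10.83 in sets 3, 2 and 1. Slc2a3, the glucose transporter GLUT3, ran opposite to Slc2a1, with set 3 at 7.08 to 7.59, below all other arrays. It was also chosen after its values were seen. Of 18 other glycolysis and pyruvate genes the mean was above the peritumoral one in 7 and below it in 11, 0 past the threshold, with Fbp1, Pdk4 and Hkdc1 at -0.23, -0.48 and -0.10. Pdk3, Pdha1, Dlat and Pfkfb2 were the 4 of these 18 in which set 3 lay above set 1, an order seen in 15.5% of all genes. These 4, and Elob, Crebbp, Rora and Stc1, were named after their values were seen.

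Some markers of myeloid cell types separated the sets as well, in either direction. Flt3, Zbtb46, Irf4 and Cd209a, genes of conventional and monocyte-derived dendritic cells, were lower in all arrays of set 3 than in every other array, and were named after their values were seen. Among 10 genes of the sort and of dendritic cells these were the 4 that did so, where 3.6% of all genes did. Itgam ran the other way, with its 5 highest values in set 3 (11.53 to 11.80, against 10.18 to 11.22 in set 1), as in 8.37% of all genes. Flt3 measured 8.73 to 9.25 in set 3, 9.64 to 10.12 in set 2 and 9.39 to 10.45 in set 1, and Irf4, a transcription factor of dendritic cells, 8.77 to 9.39, 10.19 to 10.58 and 9.88 to 10.66. The mean of that list ran from -0.49 to -0.17 in set 3 and from -0.31 to 0.33 in set 1. Of 8 macrophage and monocyte genes, 5 (Cd63, Cd68, C1qa, C1qb and Csf1r) lay above set 1 in all arrays of set 3 (15.5% of all genes), also named after their values were seen. The list mean ran from 0.10 to 0.39 in set 3 and from -0.75 to 0.03 in set 1, lowest in peritumoral 4. By label it ran from -0.75 to 0.17 in peritumoral and -0.06 to 0.39 in tumoral arrays, with a higher tumoral mean in 7 of 8 genes, 0 past the threshold and 4 at an unadjusted p under 0.05 (11.5% of all genes). Of 10 neutrophil markers, 1 (Mmp8) lay above set 1 in all arrays of set 3 (15.5% of all genes). In the other direction, 3 (Ltf, Camp and Retnlg) lay below it (6.82% of all genes). Some markers of epithelium, B cells and alveolar macrophages were low in set 3. Of 10 epithelial markers Epcam, Sftpc, Sftpb and Scgb1a1 had their 5 lowest values there (3.6% of all genes). So did Cd79a, Ms4a1 and Pax5 of 5 B cell markers and Siglecf and Pparg of 8 alveolar macrophage markers. Scgb1a1, a secretory protein of airway club cells, measured 7.25 to 7.82 in set 3 and 10.24 to 13.06 in set 1. The epithelial mean ran from -0.65 to -0.36 in set 3 and from -0.18 to 1.75 in set 1, the B cell mean from -0.78 to -0.45 and from -0.07 to 2.15, and the endothelial mean from -0.51 to -0.35 and from -0.50 to 3.52. Apart from Mmp8, Scgb1a1, Sftpc and Pparg these genes were named after their values were seen. In sorted populations like these, a change in the number of cells of a type and a change in RNA per cell cannot be told apart, and the part of cell types in the members' values was not tested.

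**Figure D5:**
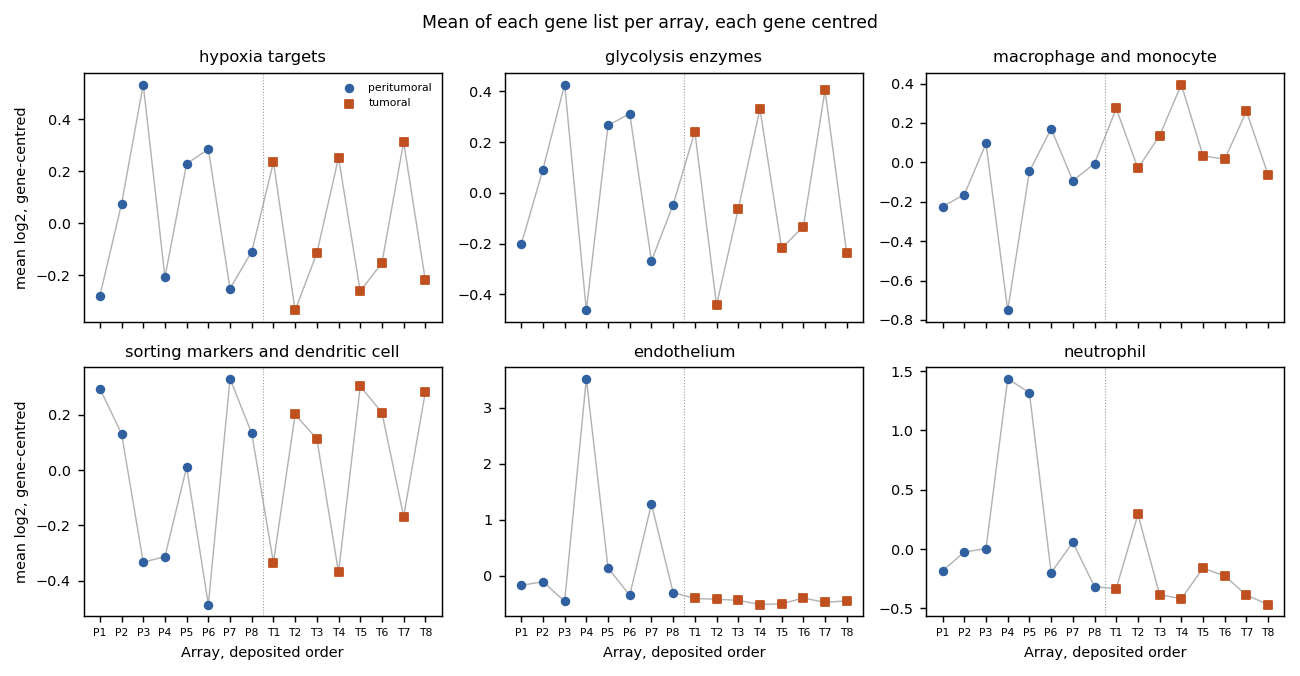
Each panel plots the mean over a gene list, each gene centred on its own mean over the 16 arrays, against the arrays in deposited order, with circles for peritumoral and squares for tumoral arrays. Hypoxia and glycolysis means peak where the means of sorting and dendritic cell genes are low, peritumoral 4 being low in all 3, and the endothelial mean peaks in peritumoral 4 and 7 instead.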

How the data were processed

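Per the labels' protocols, RNA was amplified (Ambion WT Expression Kit), biotin-labelled and hybridised to whole-transcript arrays from Affymetrix. What the authors deposited is a table of 28853 probe sets by 16 arrays, whose range of 2.31 to 14.33 led to its reading as log2 expression. Sources used here name neither the log base nor the background correction or normalization. Precision is limited by the number of arrays.

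Gene symbols came from the platform annotation: 21789 probe sets have 1 symbol, 1621 several and 5443 none. The probe set with the highest mean was kept per gene, leaving 19938 genes. All 40 member symbols matched the NCBI table of GRCm38.p6. Groups, taken from the titles, entered limma 3.58.1 under R 4.3.3 (1 term for the label, Benjamini-Hochberg adjustment, 14 residual degrees of freedom). No dim probe set was filtered out.

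The members and gene lists were chosen with earlier results of these data known. All members may be named. Of each further pathway list the 3 genes with the smallest p are named, and of marker lists the 2 with the highest mean, with exceptions said to be chosen after their values were seen. Because arrays fall into separate sets, no correlation between genes is given.

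Alternatives were the replicate number as a block, quantile normalization, cyclic loess, centring on array medians, only genes above the median mean, trended robust variances, weights per array, averaging a gene's probe sets, leaving out arrays, a rank-sum test, a looser threshold and, added after seeing the data, the column set as a block and leaving out peritumoral 7 and 8. Before use, the fit was checked on simulated arrays.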

Additional observations from a re-analysis of the deposited data

Results flagged for a closer look

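Angptl4 in peritumoral 4 was the only value of the 40 members that lay far from the others of its label. It measured 7.65, against 6.93 for the next highest peritumoral array, a gap of 0.729 of the whole peritumoral range. A test with 80 combinations of gene and label is expected to mark about 1 in 20 by chance, and 1 was marked. Peritumoral 4 also had the highest mean of the endothelial (3.52), B cell (2.15), fibroblast (2.05), NK cell (1.87), epithelial (1.75), neutrophil (1.44), alveolar macrophage (1.44) and T cell (1.25) markers. Tumoral 4 measured a higher Angptl4, 7.79, with an endothelial mean of -0.51. The part of other cell types in the Angptl4 value was not tested.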

How the results depend on the processing

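The count of members past the threshold was 0 under every alternative except 1, leaving out peritumoral 7 and 8, where it was 1 (Ddit4). For Ddit4 those arrays lay within the tumoral range. The count over all genes was 0 except in these cases: 88 without peritumoral 4 and 7, 522 without peritumoral 7 and 8, 199 at an adjusted p under 0.25, and 0 to 128 when each array was left out in turn, with 128 without peritumoral 7 and 20 without peritumoral 8. At the looser threshold 0 members passed. The median difference of hypoxia targets ran from -0.11 to 0.004 and that of glycolysis enzymes from -0.17 to 0.05 over all alternatives, less than 1 SD of the list means between arrays (0.28 and 0.31). Of 1075 differences of single members under an alternative, 1 moved by more than the gene's SD: Hk1 was -0.0081 with the mean of its probe sets. Many of the 1075 could not move that far. The replicate block, trended variances and the filter on the mean leave each difference unchanged, and leaving out 1 array shifts it too little. For these the count is no evidence of stability. Signs turned for 3 members with quantile normalization, 4 with cyclic loess, 6 with median centring and 6 with array weights, all with original differences of 0.083 or less, and for 2 to 7 members when 1 array was left out. With the replicate number as a block 0 genes and 0 members passed, and the smallest adjusted p of a member was 0.432. Arrays with the same number did not deviate together (correlations from -0.563 to 0.286). Such arrays always fall in different column sets, so this check cannot show whether the numbers pair them. Detection calls were not used here, so how far signal over background limits the dim members (Stc2, P4ha2) is unknown.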
